A study of Schizosaccharomyces pombe with 6 samples.

Results

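The genes described here are the 55 nuclear genes of fission yeast (Schizosaccharomyces pombe) that encode proteins of the small (40S) subunit of the cytosolic ribosome and whose symbols start with rps. They were chosen by symbol and by an overlap of at least 1 bp with a peak of the deposited peak list, and the mitochondrial rps3 was left out. All 55 of the 55 such annotated genes held a peak, among 5905 genes of any kind with a peak. RNA of 18 to 28 nt was sequenced in 6 libraries of cells grown in YES, a rich medium, and harvested at an optical density of 0.5. One library came from strain spb309, labelled dcr delta, at 30 °C. Another 2 came from wild-type strain spb75 at 37 °C, 1 labelled 8 h and 1 labelled 7 d. The wild-type libraries at 30 °C were 1 of strain spb80 and 2 of wild-type strain spb75, called replicate 1 and replicate 2 here. The labels give no further alleles, and they do not say whether the libraries came from separate cultures, so each p-value measures at most the spread between these samples, which may be technical.

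The small subunit binds the mRNA and the initiator tRNA and decodes codons, and each of its proteins is needed in the same number of copies per ribosome. Ribosomal protein mRNAs are among the most abundant mRNAs of growing yeast, and many of these proteins are encoded by a pair of similar gene copies. In fission yeast their promoters often carry a short element, the HomolD box, close to the transcription start, and some carry a HomolE box upstream of it. Dicer cuts double-stranded RNA into small interfering RNAs, whose best known sources in fission yeast are the centromeric repeats and not ribosomal protein genes. A read of 18 to 28 nt on a coding gene can also be a piece of its mRNA, and the peak list gives no strand, so these sources were not told apart.

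The HomolD box (CAGTCACA, or TGTGACTG when read on the other strand) was searched on both strands of the 250 bp before each annotated gene start in the genome assembly ASM294v3 of RefSeq. It was present before 34 of the 55 genes (61.8%), before 48 of 75 large-subunit genes (64%) and before 134 of 5113 protein-coding genes (2.62%). All 34 boxes lay within 100 bp of the gene start, at a median of 44 bases from it, 20 in the forward and 14 in the reverse orientation. The HomolE core (GGGTAGGG or CCCTACCC) was present before 23 of the 55 genes (41.8%), against 24 of 75 large-subunit genes (32%) and 79 of 5113 protein-coding genes (1.55%), and 11 of the 55 held both. Stretches of 50 bases of the gene's strand follow for copies whose levels differed most within a pair, with the HomolD box in capitals. No box was found in the same window of rps2601 and rps3002.
rps2602, I:2793517-2793566, minus strand: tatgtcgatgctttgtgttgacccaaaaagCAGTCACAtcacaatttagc
rps2402, II:2180821-2180870, plus strand: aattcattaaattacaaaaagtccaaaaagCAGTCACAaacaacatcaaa
rps2401, I:3599006-3599055, plus strand: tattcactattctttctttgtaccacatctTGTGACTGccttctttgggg
rps1702, III:917777-917826, plus strand: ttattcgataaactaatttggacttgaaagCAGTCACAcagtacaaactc
rps1701, II:604433-604482, minus strand: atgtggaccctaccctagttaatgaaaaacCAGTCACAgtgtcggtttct
rps3001, I:4890237-4890286, plus strand: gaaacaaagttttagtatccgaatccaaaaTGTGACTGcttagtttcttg
Genes with and without the box had like levels: the median of their means over the 6 libraries was 3581 normalised reads per kb in the 34 genes with it and 3589 in the 21 without. A match is a string of letters and no measure of binding.

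Reads over all peaks numbered 7106623 in the dcr delta library, 12910992 and 7025811 in the 8 h and 7 d libraries, and 5790804 to 15723318 in the 3 wild-type libraries at 30 °C. They were scaled between libraries by trimmed-mean factors and summed over the peaks of a gene, and the result is called normalised reads below. The genes of the small subunit took 1.73% of all reads in the dcr delta library, 0.767% at 8 h and 1.46% at 7 d, against 1.95%, 1.75% and 2.92% in spb80 and the spb75 replicates 1 and 2 at 30 °C. Of reads on protein-coding genes alone they took 12.5% in the dcr delta library, 11.6% at 8 h and 14% at 7 d, against 14 ± 0.34% (SD, n = 3) in the wild-type libraries at 30 °C. The dcr1 gene, which encodes Dicer, had 246 reads in the library labelled dcr delta, above the 58 to 81 reads of the wild-type libraries at 30 °C; the labels do not give the extent of the deletion, so the reads are no check of the label. The spb75 replicate 1 stood apart over the 55 genes. The SD over genes of the log2 ratio between libraries was 0.39 to 0.54 in the 5 pairs of libraries that include it, and 0.17 to 0.35 in the other 10.

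The 55 genes held 237 peaks, 1 to 8 a gene with a median of 4, and the peaks were 27 to 663 bp wide with a median of 90 bp. Of these peaks 207 overlapped coding sequence by at least 1 bp. Of the others 26 lay on the 3′ UTR, 1 on the 5′ UTR and 3 in an intron. Peaks covered 83.1% of the 26634 coding bases, 45.9% of the 1120 annotated bases of 5′ UTR, 46.6% of the 7435 bases of 3′ UTR and 8.01% of the 4183 intron bases, the last spread over the 31 genes with an intron. One of the 3 intron peaks, in rps3, lay on the small nucleolar RNA gene snR48 that the intron holds. It had 157 normalised reads in the dcr delta library, against 100.2, 105 and 79.1 in spb80 and the spb75 replicates 1 and 2, and 310.2 at 8 h and 65.2 at 7 d. Of the 237 peaks, 100 overlapped another annotated gene as well, 76 of them a long non-coding RNA on the opposite strand, and 19 of the 55 genes had no peak of their own. For these peaks the reads of the 2 genes cannot be told apart.

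**Figure D1:**
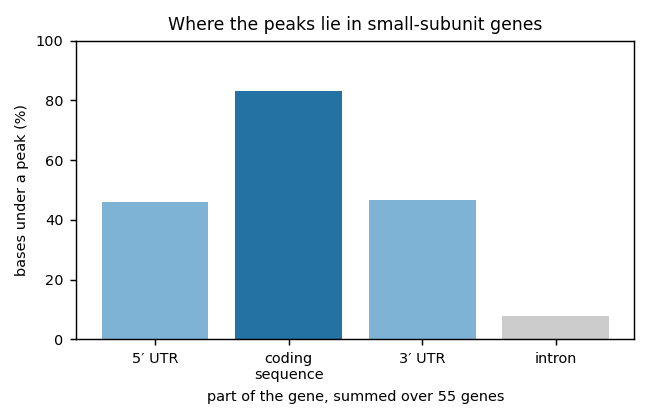
Share of annotated bases under a peak, in percent, for 4 parts of the 55 small-subunit genes. Bars give the 5′ UTR (45.9%), coding sequence (83.1%), 3′ UTR (46.6%) and introns (8.01%), with no replicates because the peak list is shared by all libraries.

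Per kb of transcript, every one of the 55 genes stood in the top 10% of the 3519 protein-coding genes with a peak, the lowest at percentile 93.5. Their median was 3584 normalised reads per kb, against 40.5 for all protein-coding genes with a peak. Levels per kb ranged 15-fold from the highest to the lowest gene. None of the 54 steps between neighbours in this order exceeded the larger of the 2 SDs over the libraries, so the order is resolved only over wider gaps.

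The 5 highest genes encode eS24, both copies of eS25, eS17 and uS3. The highest was rps2402, for eS24, a protein of the subunit's body. Per kb it had 9021 normalised reads in the dcr delta library, 16734, 21538 and 15892 in spb80 and the spb75 replicates 1 and 2 at 30 °C, 12479 at 8 h and 12879 at 7 d. The dcr delta library was the lowest of the 6. For rps2502, 1 of the genes for eS25, a protein known for its part in initiation at viral internal entry sites, the mean was 13518 ± 2421 per kb (SD, n = 6). The other eS25 gene, rps2501, had 10373 ± 4654 per kb (SD, n = 6), with 19175 in spb75 replicate 1 and 6677 to 11159 in the other libraries. The level of rps1702, for eS17, was 10236 ± 2792 per kb, and that of rps3, for uS3, which lines the mRNA entry channel, was 9691 ± 1342 per kb (SD, n = 6 each).

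The 3 lowest genes were rps2601 (eS26), rps3001 (eS30) and rps2202 (uS8). The level of rps2202, whose protein binds 18S rRNA in the subunit's body, was 986 ± 152 normalised reads per kb (SD, n = 6), 746 in the dcr delta library and 886 to 1168 in the other 5. That of rps3001 was 1055 ± 278 per kb, and its lowest value, 558, was in spb75 replicate 1. That of rps2601 was 1215 ± 401 per kb, and its lowest value, 515, was at 8 h. Each of these 3 genes has a second copy with a higher level.

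The SD over the 6 libraries of the log2 level had a median of 0.27 over the 55 genes. It was 0.38 over 2639 protein-coding genes, left after dropping the lowest 25% of those with a peak by mean over the 6 libraries. The 55 genes also have more reads than most, and the part of depth in this difference was not tested. The SD was lowest for rps1701 (0.09) and highest for rps2601 and rps1002 (0.60 each). The 8 h library held the lowest value of 35 of the 55 genes and the dcr delta library that of 12, whereas spb80 held the highest value of 33. These counts were not taken over all genes, so no trait of the 55 can be read from them.

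**Figure D2:**
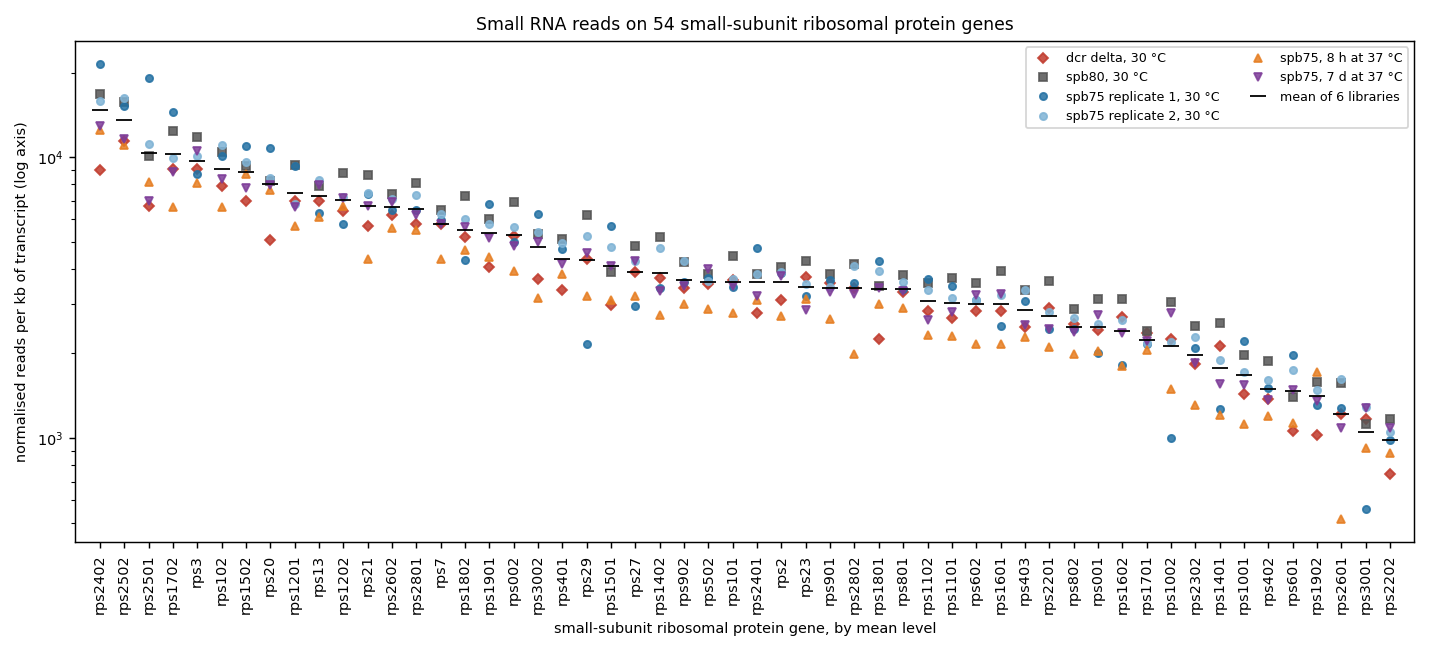
Normalised reads per kb of transcript (log axis) of 54 of the 55 genes, ordered by mean level; points are single libraries and dashes the mean of 6. Values run from 515 for rps2601 at 8 h to 21538 for rps2402 in spb75 replicate 1. The 8 h library gives the lowest value of 35 of the 55 genes, a count not taken over all genes.

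The first comparison asks whether reads on these genes differed in the dcr delta strain, which is labelled as lacking Dicer. No gene of the small subunit passed the test. In the library labelled dcr delta 48 of the 55 genes lay below the mean of the 3 wild-type libraries at 30 °C and 7 above it. Of all 4428 genes tested, 53.7% lay below it. The median log2 ratio of the 55 was -0.25, against -0.05 over all genes tested. Taken library by library, the median log2 ratio of dcr delta was -0.13 over spb75 replicate 1 and -0.25 over replicate 2. For spb80 the ratio was taken the other way round, spb80 over dcr delta, and its median was 0.41. By this median dcr delta was thus the lower library against each of the 3. With limma, 0 of 55 rose and 0 fell at an adjusted p under 0.05, where 0.271% of all genes tested rose and 1.58% fell. An unadjusted p under 0.05 was found for 1 of the 55, and for 334 of the 4428 genes tested. With voom weights limma likewise called 0 of the 55. The dcr delta value was below all 3 wild-type values for 34 genes, a relation that held for 32.2% of all genes tested.

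The 5 lowest ratios were those of rps2402, rps2501, rps20, rps1801 and rps601. rps2402 had 4493 normalised reads in the dcr delta library, against 8333, 10726 and 7914 in spb80 and the spb75 replicates 1 and 2. The dcr delta value was lower than all 3, with a log2 ratio of -0.99 (SE 0.42, limma adjusted p = 0.638). rps20, for uS10, which is ubiquitinated when ribosomes collide, had 2492 in the dcr delta library, against 4038, 5271 and 4150 in the wild-type libraries in the same order. The log2 ratio was -0.84 (SE 0.35, limma adjusted p = 0.638). For rps1801, 1 of the genes for uS13, a protein of the subunit's head, the values were 1204 in the dcr delta library, against 1860, 2285 and 2092. This gene had the lowest p of the 55, and its log2 ratio was -0.78 (SE 0.30, limma adjusted p = 0.624). The log2 ratio of rps2501 was -0.95, and that of rps601, for eS6, the target of S6 kinase, was -0.68. Both dcr delta values also lay below all 3 wild-type values.

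The 5 highest log2 ratios were 0.32 for rps3001, 0.26 for rps1002, 0.21 for rps1401, 0.13 for rps1602 and 0.07 for rps1701. Their dcr delta values lay within the wild-type range. Without spb75 replicate 1 the first 4 of them turned to -0.047, -0.19, -0.055 and -0.089, so their sign rested on that library. rps1701 turned to -0.054 when the constant added in the deposited values was kept. rps1002, for eS10 near the mRNA entrance, shows this: it had 1117 normalised reads in the dcr delta library, against 1505, 493 and 1084 in spb80 and the spb75 replicates 1 and 2. Because the RNA came from whole cultures, fewer cells with a transcript and less of it per cell cannot be told apart here or below. The dcr delta arm has 1 library, assumed to vary like the others, and its strain differs from the wild-type strains, so strain and genotype cannot be told apart.

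After 8 h at 37 °C, 51 of the 55 genes lay below the mean of the 2 spb75 libraries at 30 °C, against 42.3% of all genes tested. The median log2 ratio of the 55 was -0.39, against 0.16 over all 4428 genes tested. One gene, rps2601, fell by the limma test, and 0 rose. Among all genes 0.384% fell and 2.69% rose by the same rule. An unadjusted p under 0.05 was found for 3 of the 55, and for 895 of the 4428 genes tested. The 8 h value was below both 30 °C values for 47 genes and above both for 1, and 31.2% of all genes tested lay below both. With scaling to total reads the median of all genes moved to -0.97 and that of the 55 to -1.51, so the median of the 55 lay below that of all genes under both scalings.

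rps2601 (SPAC806.03C, chromosome I:235533-236027, minus strand) encodes eS26, which lines the mRNA exit channel. It had 255 normalised reads at 8 h, against 633 and 802 in the spb75 replicates 1 and 2 at 30 °C. The 8 h value was below both, with a log2 ratio of -1.48 (SE 0.35, limma adjusted p = 0.0437), or 0.358 of the level at 30 °C. The other libraries held 603 in dcr delta, 778 in spb80 and 536 at 7 d, so the 8 h library was the lowest of all 6. All 4 of its peaks overlap coding sequence, the 3′-most by 17 of its 69 bp, and each was lowest at 8 h. The peak nearest the 5′ end had 67.3 normalised reads at 8 h, against 261 and 267 at 30 °C. The next had 91.6 against 183 and 231, the third 29.9 against 57.7 and 93.9, and the last 66.0 against 131 and 209.6. All 4 also overlap SPNCRNA.625, a non-coding RNA on the opposite strand, so the fall cannot be assigned to 1 of the 2 transcripts. The call was lost with 3 of the settings tried: the adjusted p was 0.0574 with median-of-ratios scaling, 0.267 with total-read scaling and 0.111 in a limma fit over all 6 libraries.

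The second eS26 gene, rps2602, is read from elsewhere on chromosome I (I:2792839-2793484, minus strand) and shares no stretch of 20 bases with rps2601. Both its peaks also lie on SPAC1805.10, a protein-coding gene of the opposite strand. It had 3062 normalised reads at 8 h, against 3550 and 3860 at 30 °C, a log2 ratio of -0.27 that did not pass the test. The difference between the ratios of the 2 copies, -1.21, was not tested. Even so, 25% of the recovered values on the peaks of the 2 copies were not whole reads. The first 60 coding bases of the 2 copies follow, to show how a short read can be assigned to 1 copy. The 14 positions at which they differ are in capitals.
rps2601: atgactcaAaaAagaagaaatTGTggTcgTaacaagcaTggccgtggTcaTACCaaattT
rps2602: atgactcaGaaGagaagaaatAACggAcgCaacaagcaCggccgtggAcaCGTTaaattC

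**Figure D3:**
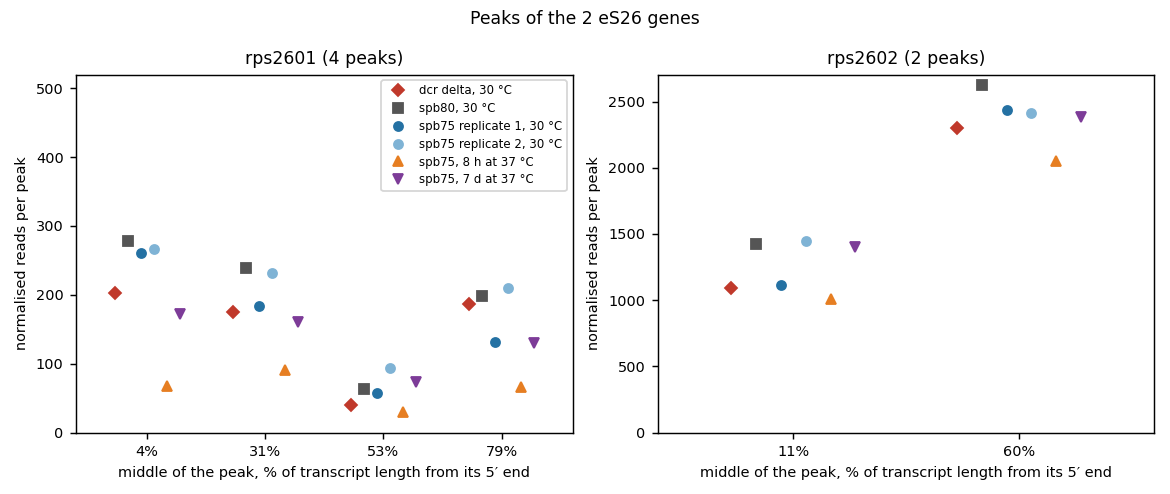
Normalised reads of each peak of rps2601 (left, 4 peaks) and rps2602 (right, 2 peaks) by library, against the peak's place along the transcript in percent of its length from the 5′ end. The 8 h triangle is the lowest point at all 4 peaks of rps2601, for example 67.3 against 261 and 267 in the spb75 libraries at 30 °C for the peak nearest the 5′ end.

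The other low ratios at 8 h did not pass the test. rps2802, for eS28 near the tRNA exit site, had 821 normalised reads at 8 h, against 1465 and 1684 at 30 °C (log2 ratio -0.94, SE 0.37, limma adjusted p = 0.189). rps3002, for eS30, had 1010 at 8 h, against 2013 and 1726 at 30 °C (log2 ratio -0.88, SE 0.38, limma adjusted p = 0.226). The log2 ratios of rps1702 and rps2501 were -0.86 and -0.84. In all 4 the 8 h value lay below both values at 30 °C. Only 4 genes had a ratio above 0: rps1902 (0.30), rps3001 (0.12), rps1202 (0.06) and rps1002 (0.01). Without spb75 replicate 1 the last 3 turned to -0.49, -0.10 and -0.56, and with total-read scaling all 4 lay below 0, between -1.11 and -0.82. rps1902, for eS19, which is needed for 18S rRNA maturation, had 906 at 8 h, against 689 and 782 at 30 °C, and was the one gene above both. The last peak of rps3001, in its 3′ UTR and on fcp1, which lies on the opposite strand, had 149.5 normalised reads at 8 h, against 38.9 and 57.3 at 30 °C. Its 2 peaks on coding sequence had 80.3 and 191 at 8 h, against 70.5 and 146 in replicate 1 and 162 and 371 in replicate 2. Counting only peaks on no other gene gave rps3001 a ratio of -0.32.

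After 7 d at 37 °C the genes lay nearer to their levels at 30 °C, and none passed the test. A total of 38 lay below and 17 above the mean of the 2 spb75 libraries at 30 °C. Of all genes tested, 50.1% lay below it. The median log2 ratio of the 55 was -0.15, against -0.0029 over 4428 genes tested. With limma 0 of 55 rose and 0 fell, against 0.519% and 1.02% of all genes tested. An unadjusted p under 0.05 was found for 0 of the 55, and for 523 of the 4428 genes tested. The lowest limma adjusted p of the 55 was 0.455, and limma with voom weights called 0. The 7 d value was below both values at 30 °C for 35 genes and above both for 9, and 37.0% of all genes tested lay below both.

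The lowest ratio was that of rps2501, with 2201 normalised reads at 7 d, against 6059 and 3526 in the spb75 replicates 1 and 2 at 30 °C. Its log2 ratio was -1.07 (SE 0.51, limma adjusted p = 0.455). Its 3′-most peak alone had 989.9 at 7 d, against 4135 in replicate 1 and 1896 in replicate 2. The next 4 were rps2402 (-0.52), rps1702 (-0.44), rps2502 (-0.44) and rps1102 (-0.43). The highest ratio was 0.91 for rps1002, with 1377 normalised reads at 7 d, against 493 and 1084 at 30 °C (SE 0.46, limma adjusted p = 0.482). All 4 of its peaks also lie on SPNCRNA.5192, a non-coding RNA of the opposite strand. It was followed by rps3001 (0.59), rps29 (0.44), rps001 (0.28) and rps27 (0.27). Without spb75 replicate 1 the ratios of rps3001 and rps29 turned to -0.015 and -0.20. With total-read scaling the median of the 55 was -0.61 and that of all genes -0.46, and rps29, rps001 and rps27 turned to -0.019, -0.18 and -0.19.

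Between the 2 times at 37 °C, 51 genes had a higher value at 7 d than at 8 h, with a median log2 ratio of 0.31, against -0.14 over 4427 genes tested, of which 58.3% were lower at 7 d. With total-read scaling these medians were 0.97 and 0.52. The ratio of 7 d to 8 h passed the test for 0 of 55 genes in either direction. By the same rule 0% of all genes tested rose and 0.0678% fell. With voom weights limma called 0 of the 55. An unadjusted p under 0.05 was found for 474 of the 4427 genes tested and for 1 of the 55. That gene was rps2601, with 536 normalised reads at 7 d, against 255 at 8 h (log2 ratio 1.07, SE 0.40, limma adjusted p = 0.335). The next ratios were 0.90 for rps1002, 0.70 for rps2802, 0.65 for rps3002 and 0.62 for rps21. The 4 below 0 were rps1902 (-0.34), rps2501 (-0.23), rps1502 (-0.16) and rps23 (-0.13), and with total-read scaling they turned to 0.32, 0.43, 0.50 and 0.53. The 8 h and 7 d comparisons share both libraries at 30 °C, and each 37 °C arm is 1 library, assumed to vary like the pair at 30 °C.

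**Figure D4:**
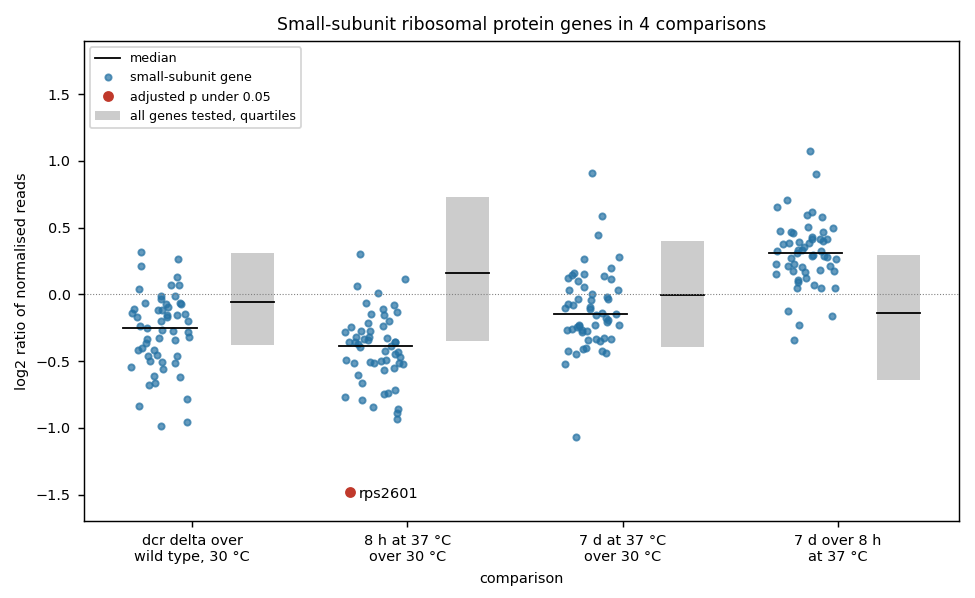
Log2 ratio of normalised reads of each of the 55 genes in 4 comparisons (points, medians as lines) beside the quartiles and median of all genes tested (grey bars). The medians of the 55 genes were -0.25, -0.39, -0.15 and 0.31 from left to right, and rps2601 at 8 h is the one gene past an adjusted p of 0.05.

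The 55 genes encode 31 proteins, of which 8 have 1 gene and 23 have 2 or more, which gives 25 pairs of copies over 47 genes (eS4 has 3 genes). Within a pair, the ratio of normalised reads per kb of transcript was taken in each library, first-named copy over second-named. The same copy was higher in all 6 libraries in 19 of the 25 pairs. By an exact 2-sided sign-flip test each had p = 0.03125, the smallest that 6 libraries allow, before any adjustment for 25 pairs. Every pair with 1 direction in all 6 libraries gets this p, so it only restates the count. Without spb75 replicate 1 the count was 22. The mean ratio passed 2-fold in 12 pairs and 4-fold in 4, and the median over pairs of its size on the log2 scale was 0.97, against a median SD over libraries of 0.23. The second-named copy was higher in 16 pairs.

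The largest ratio was that of rps2601 over rps2602, whose peaks all also lie on other genes, as given above. It was -2.53 ± 0.48 (log2, SD, n = 6) and cannot be assigned to these 2 genes alone. It was -2.35 in the dcr delta library, -2.24, -2.34 and -2.13 in spb80 and the spb75 replicates 1 and 2 at 30 °C, -3.44 at 8 h and -2.68 at 7 d. For rps3001 over rps3002, whose eS30 proteins are identical, it was -2.20 ± 0.67. This ratio was -3.49 in spb75 replicate 1 and between -2.24 and -1.66 in the other 5. For rps1701 over rps1702, the genes for eS17, it was -2.16 ± 0.37, between -2.74 and -1.69. For rps2401 over rps2402, the genes for eS24, it was -2.01 ± 0.17, with the dcr delta library at -1.69 and the other 5 between -2.18 and -2.01. In 2 of the named pairs the first copy was higher: rps1901 over rps1902 (eS19) at 1.92 ± 0.33, lowest at 8 h with 1.36, and rps401 over rps402 (eS4) at 1.55 ± 0.15 (log2, SD, n = 6 each). The direction of these 6 held in all 6 libraries per kb of transcript, of coding sequence and of bases under peaks, but the size depended on the choice. Per kb of bases under peaks, in place of transcript length, the log2 ratios were -1.49 for rps2601, -1.80 for rps3001, -0.83 for rps1701, -1.60 for rps2401, 1.34 for rps1901 and 0.92 for rps401 over their copies.

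The 3 most even pairs were rps1101 and rps1102 (uS17), rps1201 and rps1202 (eS12), and rps901 and rps902 (uS4). The mean log2 ratio was -0.02 ± 0.09 for the uS17 genes, 0.08 ± 0.33 for the eS12 genes and -0.10 ± 0.14 for the uS4 genes (SD, n = 6 each). The sign differed between libraries in all 3, with exact sign-flip p of 0.5 for uS17, 0.719 for eS12 and 0.188 for uS4. In 2 further pairs 1 library stood against the rest, and both were picked after their values were seen. The ratio of rps1001 over rps1002 was 1.15 in spb75 replicate 1 and between -0.84 and -0.35 in the other 5. That of rps2501 over rps2502 was 0.34 in spb75 replicate 1 and between -0.77 and -0.43 in the other 5.

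Between conditions the log2 ratios of the 2 copies lay within 1 of each other in 25 of 25 pairs for dcr delta, 24 at 8 h, 24 at 7 d and 25 for 7 d over 8 h. The exceptions were the eS26 genes at 8 h, above, and the eS10 genes at 7 d, where rps1001 lay 1.24 below rps1002, a value that includes spb75 replicate 1, which stood apart for this pair. The median size of the difference between copies was 0.27 for dcr delta, 0.28 at 8 h and 0.21 at 7 d, and none of these differences was tested. A HomolD box preceded both copies in 6 pairs and 1 copy in 19. In 13 of these 19 it preceded the copy with the higher mean level. This count was not tested, and its pairs are not all independent, because rps402 enters with both other eS4 genes. Copies can share reads: 18 pairs had under 10% of their 20-base stretches in common and 7 pairs had more. Over the 25 pairs, 25% to 79.2% of the recovered values on the peaks of the 2 copies were not whole reads. The eS26 genes, with no such stretch in common, had the lowest share. The highest was that of rps901 and rps902, with under 10% in common. The source of the fractions was not tested. The uS8 genes rps2201 and rps2202, which encode the same protein, differ at 1 of their first 60 coding bases, in capitals below, and a read from this stretch that misses that base fits both copies.
rps2201: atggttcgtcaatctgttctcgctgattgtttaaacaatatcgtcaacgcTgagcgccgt
rps2202: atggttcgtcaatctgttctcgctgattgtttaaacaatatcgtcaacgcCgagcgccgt

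**Figure D5:**
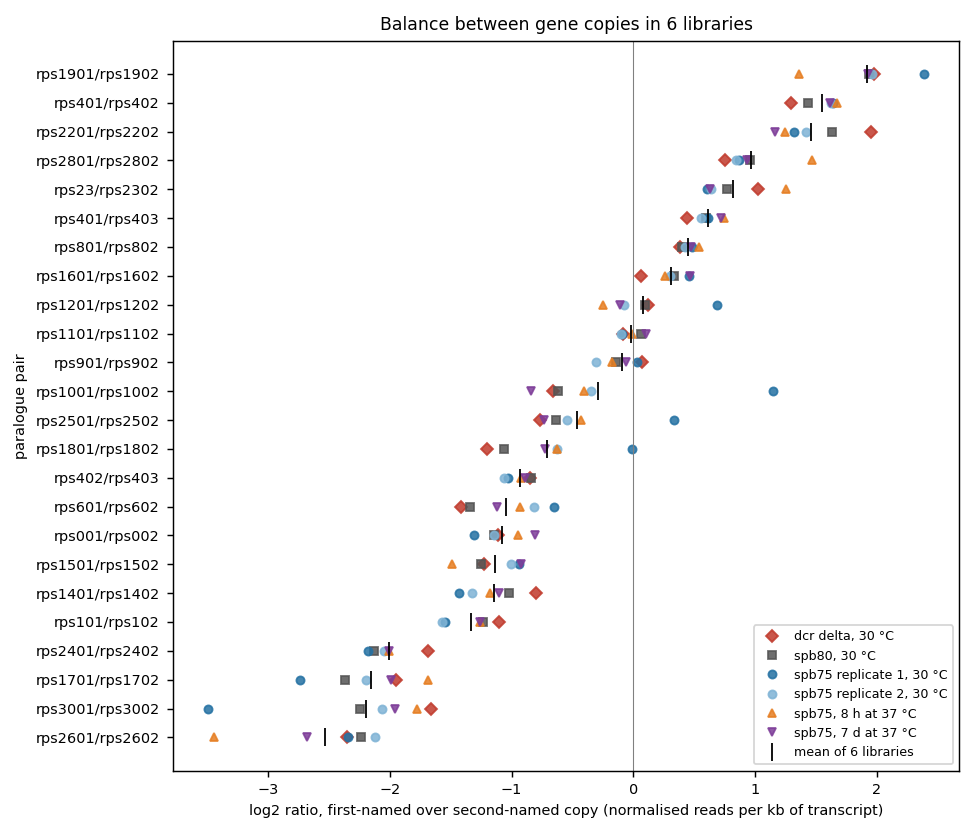
Log2 ratio of normalised reads per kb, first-named over second-named copy, for 24 of the 25 pairs of copies in each of 6 libraries (points) with the mean (bars). In 19 pairs all 6 points lie on the same side of 0, and rps1001 over rps1002 shows spb75 replicate 1 at 1.15 apart from the other 5 libraries.

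Other genes of the pathway were read in the same fits. The small-subunit genes with other symbols, cpc2 (RACK1) and the ubiquitin fusions ubi3 and ubi5, gave 0 calls, with median log2 ratios of -0.13 for dcr delta, -0.71 at 8 h and -0.16 at 7 d. Of 75 annotated large-subunit genes 74 held a peak, and 0 were called in any comparison. All 74 lay below 0 at 8 h, against 42.3% of all genes tested. The median log2 ratio of the 74 was -0.46 at 8 h, -0.30 for dcr delta and -0.11 at 7 d. Of 23 listed factors of the preinitiation complex, which loads the small subunit onto mRNA, 16 were tested and 0 called, with a median of -0.54 at 8 h. Their log2 ratios at 8 h ran from -1.04 to 0.89, and 5 of the 16 had an unadjusted limma p under 0.05. Of 28 listed small-subunit assembly factors 15 were tested and 0 called, with a median of 0.01 at 8 h. The ratios of these 15 were widely spread at 8 h, from -1.87 to 1.39, and 6 had an unadjusted limma p under 0.05. Of all 4428 genes tested at 8 h, 895 had such a p. Of 12 listed genes of TOR and S6 kinase signalling 7 were tested and 0 called, with a median of 0.52 at 8 h. Of 6 listed regulators of ribosomal protein gene transcription 3 were tested, and 1, sfp1, rose at 8 h. This gene, whose budding yeast counterpart activates ribosomal protein genes, had 267 normalised reads at 8 h, against 43.1 and 76.1 in the spb75 replicates 1 and 2 at 30 °C (log2 ratio 2.20, SE 0.46, limma adjusted p = 0.0256). It had 69.6 at 7 d. By the same rule 2.69% of all genes tested rose at 8 h. The sfp1 call was not followed under the other settings.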

How the data were processed

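Small RNA of 18 to 28 nt was sequenced in 6 libraries, 1 per sample. The tools named are Bowtie 0.9.9.1, MACS and CASAVA 1.8, per the submitters' processing notes, with no roles; the genome build was not given in the sources used. The deposited signal, 1 value for each of 11033 shared peaks and library, is the reads on the peak times the mean peak width (71.0 bp) over the peak's width, as worked out from the values. An added 8 was subtracted from 2 columns, those of spb80 and dcr delta, and not from the spb75 columns. In the dcr delta column 1 read adds 1.48. Recovered values fell within 0.01 of a whole read for 73.8 to 92.4%. Whether the fractions are shared reads was not tested. The depth is known only as reads over peaks, and PCR copies were not marked, so 95% Wilson intervals on shares (2.90 to 2.93% for the 2.92% share, the widest) cover counting error only.

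Peak positions were read on ASM294v3 with its RefSeq genes. Unshifted, 212 of 243 genes for tRNA, snRNA or snoRNA had a peak, and 38 to 60 did after shifts of 200 to 2000 bp. Reads were summed per gene, scaled by trimmed-mean factors (30% of log ratios and 5% of levels trimmed), and the lowest 25% of genes dropped; all 55 genes passed. limma 3.58.1 in R 4.3.3, 2-sided with a trend in the prior variance, tested log2(normalised reads + 1), with Benjamini-Hochberg adjustment over all genes tested at 0.05. Fold changes are on that scale. The fit was tested on simulated data. The changes planted there were larger than the ratio of any of the 55 genes, so changes of their size were not covered. A count test was not used, because the file holds signal. The sign-flip test was exact.

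The genes, lists and naming rule were chosen with earlier results of these data known. The rule named the 5 highest and 3 lowest genes per kb, called genes or the 5 largest ratios each way, and the 6 largest and 3 smallest pair ratios. Alternatives changed the scaling, filter, pseudocount, peaks counted, fit, weights and libraries. The values of 1 of the 55 genes, and of the pair it belongs to, enter the counts and are not reported here singly.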

Additional observations from a re-analysis of the deposited data

How the results depend on the processing

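No paired analysis was possible because each test arm has 1 library and the labels give no pairing. Calls of 0 genes stayed at 0 under all settings tried. At 8 h the count of genes that fell was 1, and 0 with total-read scaling, median-of-ratios scaling, peaks on no other gene (rps2601 has none) and 1 fit over 6 libraries. The median log2 ratio of the 55 genes moved to -0.36 for dcr delta with the added constant kept. At 8 h it moved to -1.51 (total reads), -0.44 (own peaks) and -0.46 (1 fit), and it ran from -0.44 to -0.34 leaving out either 30 °C library. At 7 d it moved to -0.61 (total reads) and -0.19 (1 fit), and from -0.16 to -0.063 leaving out a library; for 7 d over 8 h it moved to 0.97 (total reads). Leaving out a library at 30 °C in the heat comparisons leaves no residual degrees of freedom, so these are values with no test, and for 7 d over 8 h it leaves the ratio as it was. The count of pairs with 1 direction was 12 of the 12 that keep own peaks in both copies, and 19 to 22 leaving out 1 library.

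Ratios near 0 changed sign. For dcr delta, rps1701 was -0.054 with the constant kept. Leaving out 1 wild-type library gave ranges with both signs, always lowest without spb75 replicate 1: rps3001 from -0.047 to 0.55, rps1401 from -0.055 to 0.46, rps1602 from -0.089 to 0.30 and rps1002 from -0.19 to 0.61. At 8 h the ranges were -0.56 to 0.58 for rps1002, -0.49 to 0.72 for rps3001 and -0.10 to 0.22 for rps1202. With total reads rps1002 was -1.11, rps1202 -1.06, rps3001 -1.0 and rps1902 -0.82, and in 1 fit rps1002 was -0.34, rps1202 -0.088 and rps3001 -0.020. rps1002 was -0.012 with median-of-ratios scaling and -0.011 with voom weights, and rps3001 was -0.32 with own peaks. At 7 d the ranges were -0.20 to 1.08 for rps29 and -0.015 to 1.19 for rps3001, and with total reads rps27 was -0.19, rps001 -0.18 and rps29 -0.019. For 7 d over 8 h with total reads rps1902 was 0.32, rps2501 0.43, rps1502 0.50 and rps23 0.53. Among pairs, per kb under peaks, rps901 over rps902 was 0.014 and rps1101 over rps1102 was 0.37, and rps1201 over rps1202 ran from -0.045 to 0.14 leaving out 1 library. The cause was not tested.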
